A study of Mus musculus with 12 samples.

Results

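Fc gamma receptors bind the constant part of IgG and let a macrophage take up particles that antibody has coated. The 9 genes described here are the receptors Fcgr1, Fcgr3, Fcgr4 and Fcgr2b, the shared signaling subunit Fcer1g, the neonatal Fc receptor Fcgrt, the kinase Syk and the phosphatases Inpp5d and Ptpn6. They were chosen by symbol among the 55291 gene symbols of the deposited table, and all 9 were found. RNA had been sequenced from alveolar macrophages, the phagocytes that live in the airspaces, after flow sorting from the lungs of female C57BL/6NJ mice aged 8 to 11 weeks. One group of 6 mice had breathed 0.8 ppm ozone and the other group of 6 mice had breathed filtered air, in daily sessions of 4 h over 4 days in a row, and the lungs were collected 3 days later. The labels name no engineered allele. Each mouse has an identifier of its own in the labels, and each of the 2 flow-sort batches held 3 mice of each group. The comparison asks how the airspace macrophage of mice differs after repeated ozone.

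The biology of the family rests on a balance. Fcgr1, Fcgr3 and Fcgr4 are activating receptors whose ligand-binding chains have little signaling capacity of their own and pair with the gamma chain encoded by Fcer1g, which carries an activation motif (ITAM). Once IgG clusters the receptors, Src-family kinases phosphorylate the ITAM and the kinase Syk docks on it. Fcgr2b is the inhibitory receptor, which carries an inhibitory motif (ITIM) in its own tail and recruits the lipid phosphatase SHIP1, encoded by Inpp5d. Ptpn6 encodes the protein phosphatase SHP-1, which acts below many ITIM receptors. Fcgrt encodes the heavy chain of the neonatal Fc receptor, which binds IgG and albumin inside endosomes and returns them to the surface.

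The low-affinity receptors sit together on mouse chromosome 1. In GENCODE M21, whose assembly GRCm38 is the same as the mm10 build named in the submitters' processing notes, Fcgr2b lies at chr1:170958617-170976547 on the minus strand. Fcgr4 follows at chr1:171018920-171029761 on the plus strand, Fcgr3 at chr1:171051174-171064935 on the minus strand and Fcer1g at chr1:171229572-171234365 on the minus strand. Fcgr1, the high-affinity receptor, lies apart at chr3:96282909-96293969 on the minus strand. The other members are Inpp5d at chr1:87620312-87720507, Ptpn6 at chr6:124720707-124738714, Fcgrt at chr7:45092990-45103851 and Syk at chr13:52583173-52648792.

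Fcgr2b and Fcgr3 share coding sequence, which matters for reading their values. The longest run that is identical in the longest coding sequences of both genes has 129 bases. It spans an exon junction, and in Fcgr2b it covers chr1:170967980-170968081 and chr1:170966674-170966700 of the minus strand in exons 5 and 6 of 10. In Fcgr3 the same letters lie at chr1:171057691-171057792 and chr1:171054167-171054193 in exons 3 and 4 of 5. It is shown because a read that falls inside it cannot be given to either receptor from its sequence alone:
Fcgr2b and Fcgr3 shared run: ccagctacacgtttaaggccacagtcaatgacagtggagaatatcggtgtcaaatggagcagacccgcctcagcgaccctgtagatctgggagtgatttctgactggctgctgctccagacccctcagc
Of all windows of 50 bases, the read length in the labels' protocols, in GENCODE M21's coding transcripts, 10.2% of the 1627 in Fcgr3 also occur in Fcgr2b. In the other direction 4.48% of the 3708 windows of Fcgr2b occur in Fcgr3. No other pair among the 9 members shares such a window. How the authors divided shared reads between genes is not given in the sources used here. These shares count single windows and not read pairs, so how far the values of Fcgr2b and Fcgr3 are affected is not known. An antisense gene, Gm38204, overlaps the start of Fcgr2b and was not among the genes kept; the library kit was stranded, but whether counting used strand is not given either.

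The promoters of Fcgr1 and Fcgr2b are shown because these 2 genes gave the smallest and the largest p-value of the receptors in the ozone comparison. The sequences are RefSeq's, build GRCm38.p6, and run from 250 bases before the gene's start in RefSeq to 50 bases after it. For Fcgr2b that start lies inside the gene as GENCODE M21 draws it, so the window is not at the outer end of the coordinates given above. Capitals mark the core letters of the motif of PU.1 (GAGGAA), a myeloid transcription factor, searched on both strands, so that TTCCTC is a match on the opposite strand.
Fcgr1, chr3:96293920-96294219, minus strand: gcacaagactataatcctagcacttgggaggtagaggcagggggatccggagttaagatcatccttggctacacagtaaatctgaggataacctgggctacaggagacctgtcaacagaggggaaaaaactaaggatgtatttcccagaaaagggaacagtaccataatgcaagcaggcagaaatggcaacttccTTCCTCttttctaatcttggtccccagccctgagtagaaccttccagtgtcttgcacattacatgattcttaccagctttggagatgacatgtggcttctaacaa
Fcgr2b, chr1:170976022-170976321, minus strand: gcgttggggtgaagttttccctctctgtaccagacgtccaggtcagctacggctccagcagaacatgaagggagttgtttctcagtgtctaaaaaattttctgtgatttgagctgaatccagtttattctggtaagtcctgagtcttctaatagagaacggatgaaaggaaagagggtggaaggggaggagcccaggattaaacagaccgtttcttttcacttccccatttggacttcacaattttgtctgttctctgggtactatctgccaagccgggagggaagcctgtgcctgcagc
The Fcgr1 window holds TTCCTC at -55 to -50 relative to the RefSeq start, and the Fcgr2b window does not hold these letters on either strand. The windows of Fcgr3, Fcgr4 and Inpp5d and 1 of the 2 windows of Syk hold them too, and those of Fcer1g, Fcgrt and Ptpn6 do not. The members with and without a match do not separate by their ozone differences given below. Among 32851 RefSeq promoter windows of the same length, 28.3% hold GAGGAA on either strand. A match describes letters only.

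The deposited values were variance-stabilized and are on a log2 scale. In the deposited table the mean of the 6 filtered-air mice is 0 in every gene, so a value says how far a mouse lies from that mean and says nothing of how abundant a gene is. Members are therefore compared in their differences and not in their levels. The total number of reads is unknown, differences are compressed where a gene has few reads, and in sorted bulk cells fewer cells of a type and less RNA per cell cannot be told apart. RNA integrity numbers lay between 8.9 and 9.7 in filtered air and between 9.2 and 9.7 after ozone. All 16 listed alveolar macrophage markers were above the table's minimum in all 12 mice, and so were 71 of the 79 listed markers of 13 other cell types or lineages. Filtered-air mouse 4 had the highest score of the series in 6 of these 13 lists and the lowest RNA integrity number, 8.9. Without that mouse 0 members were called, as with it. Ozone mouse 6 had the lowest alveolar macrophage score of the 12 mice, -0.10, and the highest fibroblast score, 0.26, and mast cell and basophil score, 0.25. Only 2 of the 5 mast cell and basophil markers were kept, and 1 was above the minimum in all 12 mice. Filtered-air mouse 3 had a score of 0.24 in that list.

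None of the 9 members changed after ozone by the test applied, limma with flow-sort batch as a covariate and Benjamini-Hochberg adjustment over the 19633 genes kept. Across those genes 4.25% were called (adjusted p under 0.05), 2.41% higher and 1.84% lower, and 0 of 9 members were. At an unadjusted p under 0.05 there was 1 member of 9, Fcgr1, against 16.7% of all genes. The ozone and filtered-air values overlapped in every member, while 3.53% of all genes showed no overlap. Of the members, 6 had a higher mean after ozone and 3 a lower one, with a median difference of 0.032 beside -0.0033 over all genes kept. The median absolute difference was 0.042 in the members and 0.046 over all genes. The smallest absolute difference of a called gene was 0.121. Fcgr1 at 0.158 and Fcgr3 at 0.125 exceeded it without a call, and the other members lay below it. A call depends on the spread of a gene as well as on its difference.

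**Figure D1:**
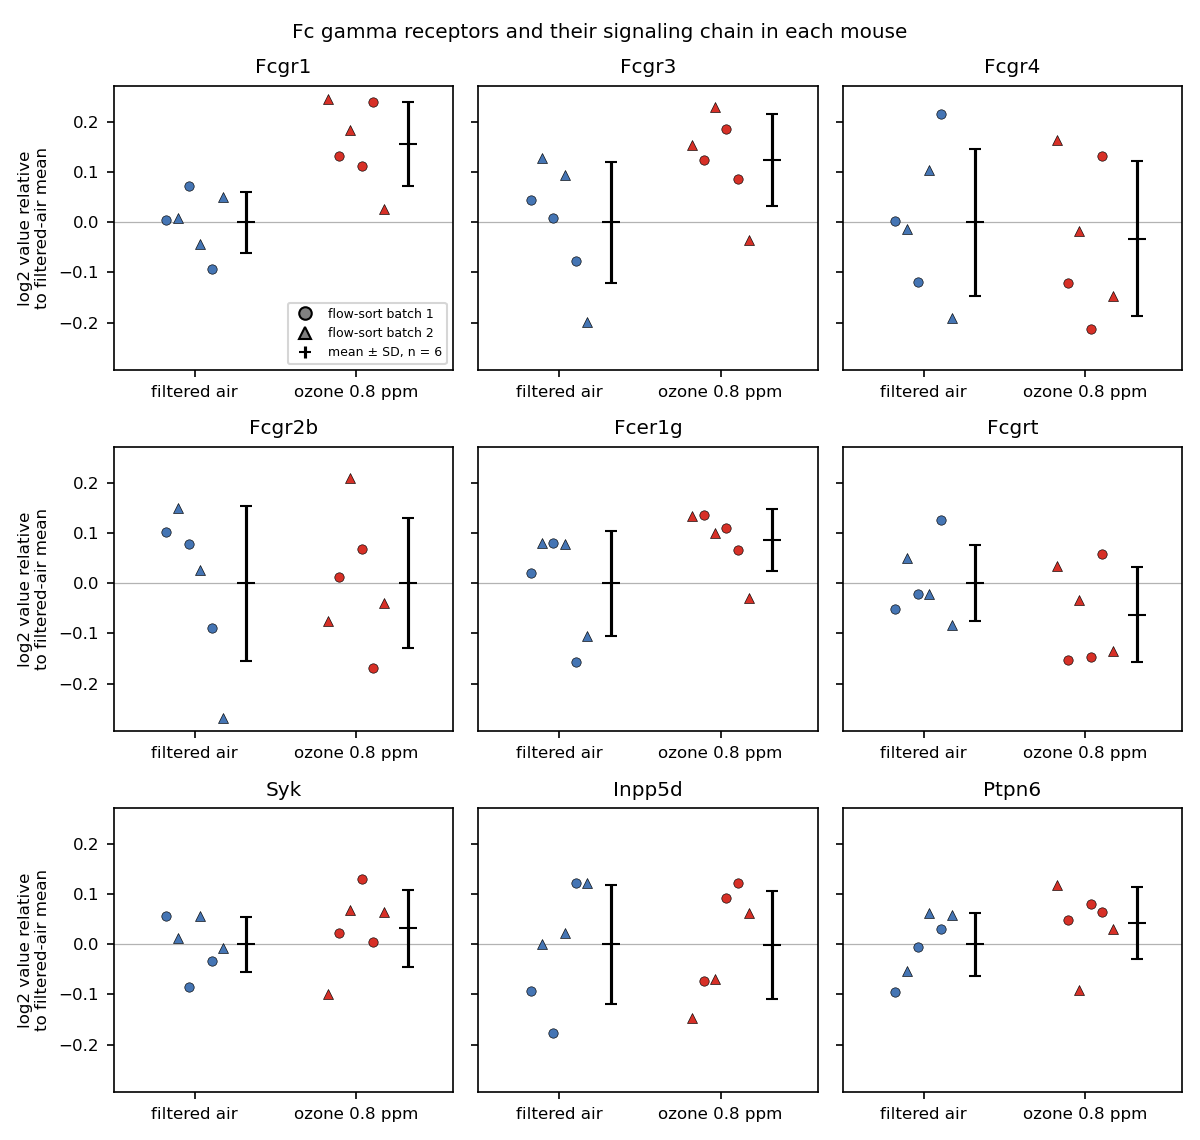
Value of each of the 9 genes in each mouse (y axis, log2 scale relative to the filtered-air mean; circles and triangles are the flow-sort batches; bars are mean ± SD, n = 6). Fcgr1 comes closest to separate groups, with only ozone mouse 6 at 0.027 inside the filtered-air range. The other panels overlap more, and in the Fcer1g panel 4 of 6 ozone mice stand above every filtered-air mouse.

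Fcgr1, the high-affinity receptor for monomeric IgG, had the largest difference of the members. In filtered air it lay between -0.093 and 0.073, with a median of 0.0067. After ozone it lay between 0.027 and 0.25, with a median of 0.16. In 5 of 6 ozone mice Fcgr1 was above every filtered-air mouse, and ozone mouse 6 was the exception. The ozone mean was 0.16 ± 0.084 (SD, n = 6) against a filtered-air mean of 0 ± 0.061 (SD, n = 6), a difference of 0.16 (SE 0.045, 95% confidence interval 0.060 to 0.25). This did not pass the threshold (limma, adjusted p = 0.0702). Without ozone mouse 6 the difference was 0.19 and passed (limma, adjusted p = 0.0261); over all alternatives the adjusted p ranged from 0.0261 to 0.589. The part of that mouse's marker scores, given above, in its Fcgr1 value was not tested. The difference was 0.17 in batch 1 and 0.15 in batch 2, 3 mice against 3 in each. The score of interstitial macrophage markers, the mean of 8 genes including C1qa and Folr2, of which none was called or at the minimum in any mouse, lay between -0.20 and 0.18 in filtered air and between 0.015 and 0.21 after ozone, and its part in the Fcgr1 values was not tested.

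Fcgr3, the low-affinity activating receptor, ranged from -0.20 to 0.13 in filtered air with a median of 0.027. After ozone it ranged from -0.035 to 0.23 with a median of 0.14. In 3 of 6 ozone mice Fcgr3 exceeded every filtered-air mouse, and ozone mouse 6 was again the lowest of its group, without which the Fcgr3 difference was 0.16 (limma, adjusted p = 0.153). Leaving out filtered-air mouse 6, the lowest of its group, gave 0.080 (limma, adjusted p = 0.516). The difference was 0.12 (SE 0.059, 95% confidence interval -0.0026 to 0.25; limma, adjusted p = 0.311), with 0.14 in batch 1 and 0.11 in batch 2. An ozone difference of the size of the called genes' median, 0.25, is at the edge of this interval.

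Fcgr4, an activating receptor that binds IgG2 subclasses, went the other way on average and scattered more. It lay between -0.19 and 0.22 in filtered air, with a median of -0.0051. After ozone it lay between -0.21 and 0.16, with a median of -0.069. The ozone mice fell within the filtered-air range except for the lowest of them, mouse 4. The difference of -0.033 (SE 0.078, 95% confidence interval -0.20 to 0.13; limma, adjusted p = 0.891) was smaller than the spread in either group, 0.15 (SD, n = 6) in each. Its sign differed between the batches, at -0.10 in batch 1 and 0.034 in batch 2.

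Fcgr2b, the inhibitory receptor, had nearly the same mean in both groups. In filtered air it lay between -0.27 and 0.15, with a median of 0.053. After ozone it lay between -0.17 and 0.21, with a median of -0.013. Both ranges are wide, and filtered-air mouse 6 and ozone mouse 3 mark the lowest and the highest value of the series. The difference was 0.0013 (SE 0.075; limma, adjusted p = 0.997), and its 95% confidence interval reached from -0.16 to 0.16. That interval is before adjustment over all genes. A change as large as the mean difference of Fcgr1 lay about at its ends, and one of that size could go uncalled. B cells also express Fcgr2b as their only Fc gamma receptor, and the score of 7 B cell markers, of which none was called or at the minimum in any mouse, lay between -0.23 and 0.39 in filtered air and between -0.49 and -0.043 after ozone. The part of B cell RNA in the Fcgr2b values was not tested.

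Fcer1g, the signaling subunit that the activating receptors need at the surface, followed Fcgr3 in direction. It lay between -0.16 and 0.082 in filtered air, with a median of 0.050. After ozone it lay between -0.030 and 0.14, with a median of 0.11. In 4 of 6 ozone mice Fcer1g was above every filtered-air mouse, while ozone mouse 6 lay below the filtered-air mean, and without it the Fcer1g difference was 0.11 (limma, adjusted p = 0.265). Leaving out filtered-air mouse 5, the lowest of its group, gave 0.052 (limma, adjusted p = 0.661). The difference of 0.087 (SE 0.051, 95% confidence interval -0.022 to 0.20) did not pass (limma, adjusted p = 0.436), and was 0.12 in batch 1 and 0.050 in batch 2.

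Of the enzymes below the receptors, none passed. Syk, the kinase that docks on the ITAM, ranged from -0.084 to 0.057 in filtered air and from -0.10 to 0.13 after ozone, a difference of 0.032 (95% confidence interval -0.061 to 0.12; limma, adjusted p = 0.791). Inpp5d, the phosphatase below Fcgr2b, ranged from -0.18 to 0.12 in filtered air and from -0.15 to 0.12 after ozone. Its mean difference was -0.0012 (95% confidence interval -0.13 to 0.13; limma, adjusted p = 0.997), made of 0.097 in batch 1 and -0.10 in batch 2. The batches thus had opposite signs, and the interaction of exposure with batch had an unadjusted p of 0.117 in limma, the smallest among the members. Ptpn6, the SHP-1 gene, ranged from -0.094 to 0.063 in filtered air and from -0.091 to 0.12 after ozone, a difference of 0.042 (95% confidence interval -0.051 to 0.13; limma, adjusted p = 0.711). No member had an adjusted p under 0.05 or an unadjusted p under 0.05 for that interaction in limma, against 0 and 2.6% of all genes. The sign of the difference was the same in both batches in 4 of the 9 members, Fcgr1, Fcgr3, Fcer1g and Fcgrt.

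Fcgrt, the neonatal receptor, leaned in the opposite direction to Fcer1g. It ranged from -0.082 to 0.13 in filtered air, with a median of -0.022. After ozone it ranged from -0.15 to 0.058, with a median of -0.084. In 3 of 6 ozone mice, mice 2, 4 and 6, Fcgrt lay below every filtered-air mouse. The difference was -0.063 (95% confidence interval -0.17 to 0.045; limma, adjusted p = 0.611), and -0.035 when filtered-air mouse 5, the highest of its group, was left out. The light chain that pairs with it, B2m, differed by 0.071 (limma, adjusted p = 0.548), in the opposite direction.

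**Figure D2:**
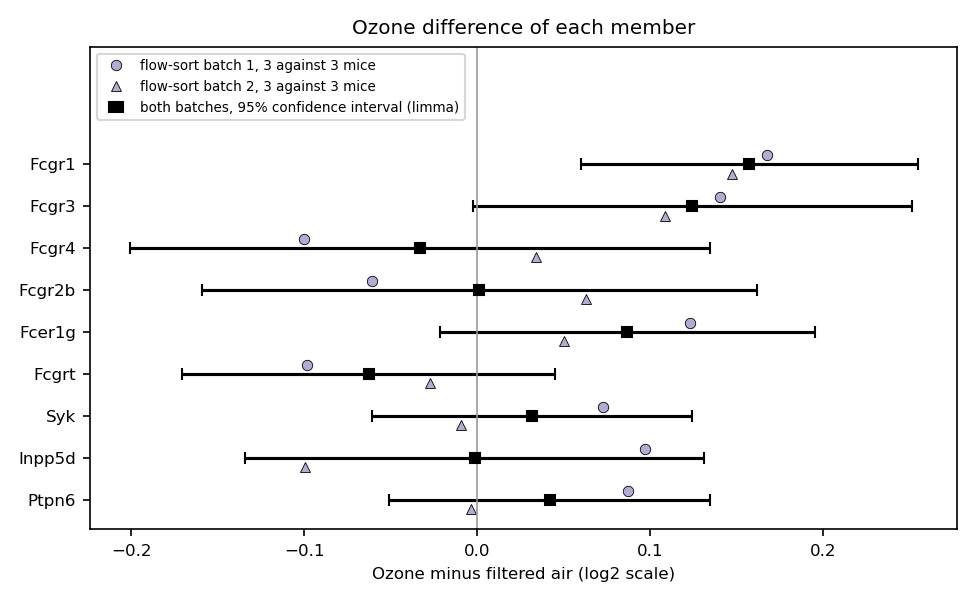
Ozone minus filtered air for each gene (x axis, log2 scale). Squares are the fit over both batches with its 95% confidence interval, and circles and triangles are batch 1 and batch 2 alone. Fcgr1 has the only interval that does not include 0, from 0.060 to 0.25, before adjustment over all genes.

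The activating receptors were then set against the inhibitory one within each mouse, since the ratio between them sets the response to IgG. The difference of each activating receptor and Fcgr2b on the log2 scale was compared between groups with a two-sided exact permutation test that reassigned exposure within flow-sort batches. There are 400 such assignments, so the smallest p they allow is 0.005, and p-values were adjusted over the 3 pairs. Fcgr3 minus Fcgr2b lay between -0.070 and 0.071 in filtered air and between 0.0037 and 0.26 after ozone. In 4 of 6 ozone mice it was above every filtered-air mouse, and ozone mice 3 and 6 were not. The ozone mean was 0.12 ± 0.10 (SD, n = 6) against 0 ± 0.061 (SD, n = 6) for filtered air (exact permutation test, p = 0.05, adjusted p = 0.15). The difference was 0.20 in batch 1 and 0.045 in batch 2, and it did not pass the threshold. Part of each gene's reads can be shared with the other, as shown above.

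Fcgr1 minus Fcgr2b had a wider spread. It lay between -0.14 and 0.32 in filtered air and between -0.026 and 0.41 after ozone. The ozone mean was 0.16 ± 0.17 (SD, n = 6) against 0 ± 0.17 (SD, n = 6) for filtered air (exact permutation test, p = 0.155, adjusted p = 0.232). The difference was 0.23 in batch 1 and 0.084 in batch 2. It was 0.10 when ozone mouse 5 was left out and 0.23 when filtered-air mouse 6 was left out (exact permutation test, adjusted p = 0.405 and 0.06). Filtered-air mouse 6, whose Fcgr2b value was the lowest of the series, stood at the top of its group. Fcgr4 minus Fcgr2b differed by -0.034, at -0.040 in batch 1 and -0.029 in batch 2, with group SDs of 0.25 and 0.19 (exact permutation test, p = 0.805, adjusted p = 0.805). No shift between activating and inhibitory receptors was detectable with 6 mice in each group. The sign of Fcgr4 minus Fcgr2b turned positive when filtered-air mouse 5 was left out (0.041), and likewise for ozone mouse 3 (0.014) and ozone mouse 4 (0.027).

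**Figure D3:**
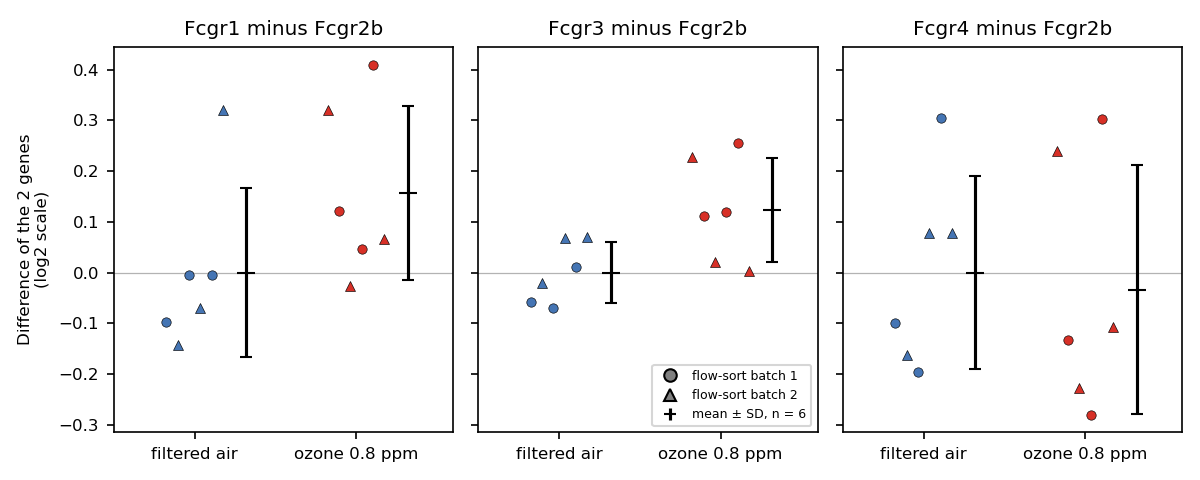
Each activating receptor minus Fcgr2b in each mouse (y axis, log2 scale; circles and triangles are the flow-sort batches; bars are mean ± SD, n = 6). In the Fcgr3 panel 4 ozone mice stand above all filtered-air mice, and in the Fcgr4 panel ozone mice 3 and 4 stand below all filtered-air mice and the other 4 overlap them.

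Because the activating receptors pair with the gamma chain, their values were compared mouse by mouse after subtraction of the group means. The relation was computed for 4 pairs over all 12 mice, with permutation tests of 100000 reassignments and adjustment over the pairs. Reassignment ran over all 12 mice and not within group or flow-sort batch, although group and batch means had been removed, so these p-values are approximate. Fcgr3 and Fcer1g deviated together, with Pearson's r = 0.82 (permutation p = 0.00186, adjusted p = 0.00744) and Spearman's rho = 0.63 (permutation p = 0.0325, adjusted p = 0.0972). Without filtered-air mouse 6 and ozone mouse 6, the mice farthest from the median of Fcgr3, r was 0.69, and it was 0.74 in batch 1 and 0.94 in batch 2. The rank correlation did not pass after adjustment. With the group difference left in, Fcgr3 ranked 64 in likeness to Fcer1g, so other genes followed Fcer1g more closely.

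The other pairs did not pass in either measure after adjustment. Fcgr1 and Fcer1g had r = 0.45 (permutation p = 0.144, adjusted p = 0.193) and rho = 0.30 (permutation p = 0.343, adjusted p = 0.457). That value rested on filtered-air mouse 5 and ozone mouse 6, without which r was -0.29, and r was 0.58 in batch 1 and 0.34 in batch 2. Fcgr4 and Fcer1g had r = -0.044 (permutation p = 0.887, adjusted p = 0.887) and rho = -0.16 (permutation p = 0.614, adjusted p = 0.614), with r = -0.83 in batch 1 and 0.79 in batch 2. Without filtered-air mouse 5 and ozone mouse 1 that r was 0.31. Fcgr2b and Inpp5d, the inhibitory receptor and its phosphatase, had r = -0.54 (permutation p = 0.0710, adjusted p = 0.142) and rho = -0.59 (permutation p = 0.0486, adjusted p = 0.0972). Without filtered-air mouse 6 and ozone mouse 3 that r was -0.41, and it was -0.72 in batch 1 and -0.47 in batch 2.

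**Figure D4:**
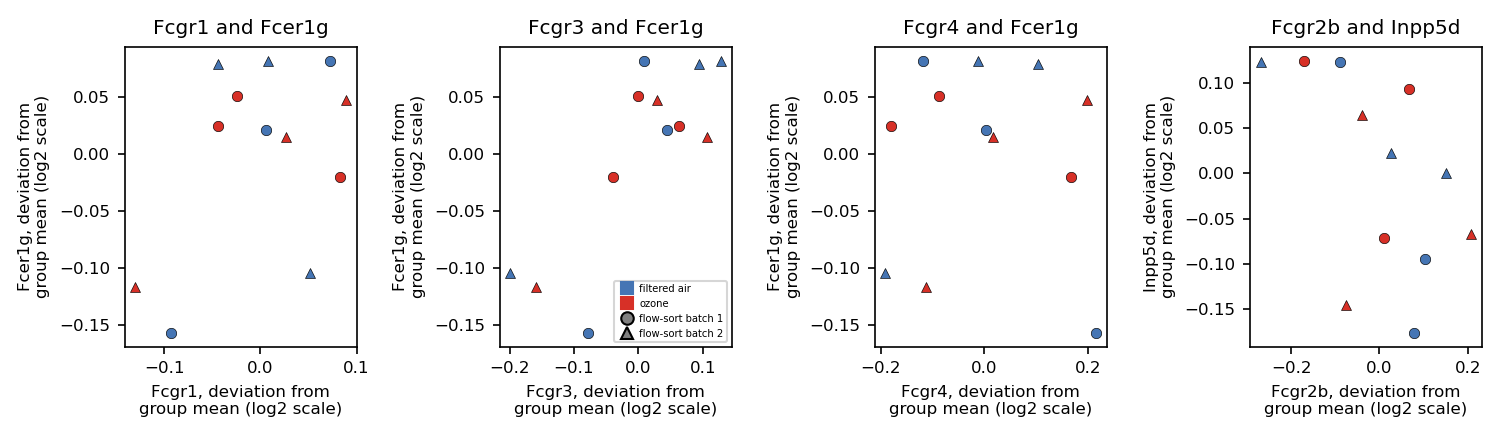
Deviation of each mouse from its group mean (log2 scale) for 4 pairs of genes; blue is filtered air, red is ozone, circles and triangles are the flow-sort batches. Fcgr3 and Fcer1g lie along a rising line (r = 0.82), and the Fcgr4 panel shows opposite slopes in the batches.

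As a description, Ndufb8, Iah1, Ndufa5 and Mrps17 were among the 5 genes whose values were most like those of Fcer1g over the 12 mice, with Pearson's r from 0.93 to 0.94. Ndufb8 and Ndufa5 encode subunits of respiratory complex I and Mrps17 a protein of the mitochondrial ribosome. Fcgr3 ranked 64 among the 19633 genes in likeness to Fcer1g (r = 0.86), and Fcgr1 ranked 1234 (r = 0.62). The genes most like Fcgr2b were Tmem150b, Gtf2h2, Stx3, Ifrd1 and Zpbp, with r from 0.85 to 0.90, and Fcgr3 ranked 145 (r = 0.69). These values hold the group difference as well as the scatter of mice, and all genes of a mouse share 1 library.

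The genes that lie between the receptors on chromosome 1 were read alongside them, a choice made by position after the members' values were known. From Fcgr2b to Fcer1g the region spans 275.7 kb and holds 11 protein-coding genes, all of them kept. None was called (limma, 0 of 11, against 4.25% of all genes). Their differences ran from -0.11 in Tomm40l, which encodes a mitochondrial import protein, to 0.12 in Fcgr3. Neighbours of Fcer1g such as Sdhc, a succinate dehydrogenase subunit, at 0.079 and Nr1i3, a nuclear receptor, at 0.0096 did not pass either.

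Around the receptors, single genes of the signaling network changed after ozone. In 7 lists that hold 151 names, 149 genes were kept, of which 4 rose and 4 fell (limma, adjusted p under 0.05). This is 5.37% of them, beside 4.25% of all genes, so the network as a whole was called about as often as the background. Its median difference was -0.012. The count fell from 8 to 1, Trem2, after quantile normalization, and to 3 without filtered-air mouse 1. At an unadjusted p under 0.05, beside 16.7% of all genes, there were 6 of 35 activating kinases, lipases and adaptors, 1 of 19 inhibitory enzymes and adaptors, 3 of 17 genes of the ITAM list and 6 of 17 ITIM receptors. The same count was 5 of 36 for the phagocytic cup, 3 of 13 for transcription factors and receptors, and 2 of 12 for other Fc receptors.

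Among activating kinases, lipases and adaptors, 3 of 35 genes were called, 1 higher and 2 lower, with a median of 0.0059. Pik3r1, the regulatory subunit of class I PI3-kinase that Syk signaling draws on, fell by 0.31 (SE 0.051; limma, adjusted p = 0.00401). It lay between -0.18 and 0.15 in filtered air and between -0.36 and -0.24 after ozone, with no overlap, and was lower in all 6 ozone mice. Lat2, an adaptor phosphorylated downstream of Syk and Src-family kinases, fell by 0.21 (SE 0.049; limma, adjusted p = 0.0279). Its groups overlapped, from -0.072 to 0.092 in filtered air and from -0.30 to -0.037 after ozone, and leaving out filtered-air mouse 1, 4 or 5 or ozone mouse 1, 2, 3 or 5 ended the call. Prkcd, the protein kinase C isoform delta, rose by 0.27 (SE 0.060; limma, adjusted p = 0.0203), from -0.077 to 0.091 in filtered air and from 0.0051 to 0.41 after ozone. That call was lost without filtered-air mouse 1 or ozone mouse 3. Of the Src-family kinases that phosphorylate the ITAM, Lyn differed by 0.038 (limma, adjusted p = 0.642) and Fgr by 0.019 (limma, adjusted p = 0.890).

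On the inhibitory side, none of 19 phosphatases, kinases and adaptors was called (limma; 1 at an unadjusted p under 0.05), and the median was -0.027. Ubash3b, a phosphatase that acts on Syk, had the smallest p, with a difference of -0.17 (SE 0.048; limma, adjusted p = 0.0717). Without ozone mouse 1 the Ubash3b difference was -0.19 and passed (limma, adjusted p = 0.0361), and it also passed with no flow-sort batch term (limma, adjusted p = 0.0452). Inppl1, the relative of Inpp5d, differed by 0.087 (limma, adjusted p = 0.358).

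The 2 largest of the 8 called differences were in receptors of the ITAM and ITIM lists, Trem2 and Ceacam1. Of 17 ITAM adaptors and partner receptors 1 was called, Trem2, a lipid-sensing receptor that signals through the adaptor Tyrobp. Trem2 rose by 0.60 (SE 0.075; limma, adjusted p = 0.000811), from -0.16 to 0.18 in filtered air and from 0.44 to 0.87 after ozone, with no overlap. Tyrobp, the other ITAM adaptor of macrophages beside Fcer1g, differed by 0.012 (limma, adjusted p = 0.952). The list's median was 0.012.

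Of 17 receptors with ITIM motifs 2 were called, both higher, with a median of 0.022. Ceacam1, an adhesion receptor, rose by 0.38 (SE 0.087; limma, adjusted p = 0.0213), from -0.20 to 0.43 in filtered air and from 0.26 to 0.51 after ozone. Its filtered-air group holds mouse 4 at 0.43, far above the others, and without that mouse the Ceacam1 difference was 0.48 (limma, adjusted p = 0.000109). The Ceacam1 call was lost without filtered-air mouse 2 or ozone mouse 4 or 5. Siglece, a sialic acid receptor, rose by 0.19 (SE 0.044; limma, adjusted p = 0.0241), from -0.094 to 0.060 in filtered air and from 0.12 to 0.28 after ozone, with no overlap, and leaving out filtered-air mouse 1 or 6 or ozone mouse 1 or 5 ended the call. Pirb, another ITIM receptor of macrophages, differed by 0.067 (limma, adjusted p = 0.599).

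The machinery of the phagocytic cup, which shapes actin and membrane around an opsonized particle, was called in 1 of 36 genes, with a median of -0.012. Crk, an adaptor, fell by 0.17 (SE 0.043; limma, adjusted p = 0.0354), from -0.059 to 0.082 in filtered air and from -0.30 to -0.087 after ozone, with no overlap. When single mice were left out, the Crk call ended in 8 of 12 cases and was kept without filtered-air mouse 5 or 6 or ozone mouse 1 or 2.

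Of 13 transcription factors and receptors tied to Fc gamma receptor expression 1 was called, Il10ra, the IL-10 receptor alpha chain, which fell by 0.18 (SE 0.047; limma, adjusted p = 0.0472). Il10ra kept that call in only 2 of 12 cases when single mice were left out, those without filtered-air mouse 5 or ozone mouse 2, and lost it with the replicate block (limma, adjusted p = 0.0576). The median of the list was -0.025. Spi1, the gene of PU.1, whose motif was searched in the promoters and which was chosen here for that reason, differed by 0.020 (limma, adjusted p = 0.878).

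Among 12 kept genes of other Fc receptors and the FcRn light chain, 0 were called (limma; 2 at an unadjusted p under 0.05), and the median was -0.038. Fcmr, the IgM receptor, had the smallest p, with a difference of -0.17 (limma, adjusted p = 0.271). Without filtered-air mouse 4 the Fcmr difference was -0.099. Fcer2a, the low-affinity IgE receptor, differed by -0.16 (limma, adjusted p = 0.277). Fcmr and Fcer2a are B cell genes, and the B cell marker score is given above beside Fcgr2b.

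**Figure D5:**
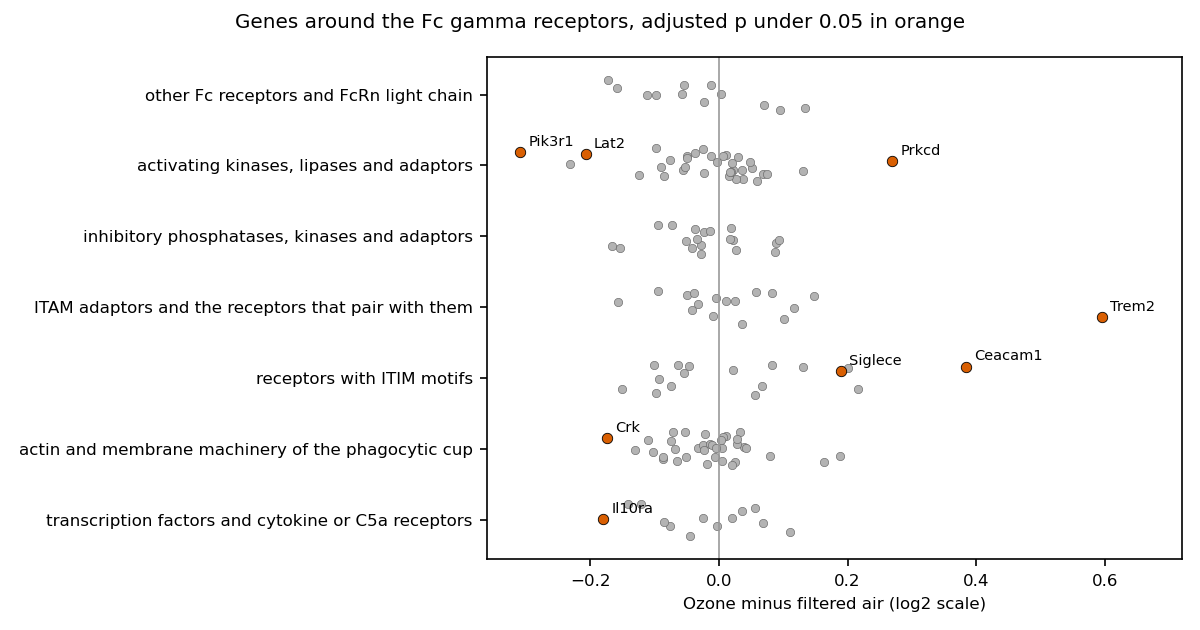
Ozone minus filtered air (x axis, log2 scale) for 149 genes in 7 lists around the Fc gamma receptors; each point is 1 gene and orange points had an adjusted p under 0.05 in limma. Most points lie near 0, with Trem2 at 0.60 and Pik3r1 at -0.31 as the extremes.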

How the data were processed

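RNA of sorted alveolar macrophages from 12 mice, 6 per exposure, was measured by stranded, paired-end mRNA sequencing. The submitters' processing notes name cutadapt, STAR 2.7.7a, Salmon 1.5.2, DESeq2 1.26.0, R 3.6.0 and limma 3.42.2 and the build mm10, without roles. The deposited table holds log2-scale values that the authors had variance-stabilized and batch-corrected, per the file name. In every gene the filtered-air mean and the difference of the flow-sort batch means are 0. Depth is unknown. Of 25444 genes that were not constant, 19633 with at least 6 of 12 mice above the minimum shared within a batch (tolerance 1e-06) were kept. They were fitted with limma 3.58.1 in R 4.3.3 (group plus flow-sort batch, no mean-variance trend), with Benjamini-Hochberg adjustment at 0.05. Receptor pairs were tested by exact permutation within batches.

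The members and lists were chosen with earlier results of these data known. Named genes are all members and, of each list, the 3 called genes with the smallest p, or the 1 gene with the smallest p where none was called. For Fcer1g and Fcgr2b the 5 genes with the highest r were also named. B2m, Lyn, Fgr, Inppl1, Tyrobp, Pirb, Fcer2a and Spi1 fall outside this rule and were chosen after their values were seen. The limma fit and the test of receptor pairs, but not that of correlations, were also run on simulated data. Replicate numbers did not pair the mice, which are different animals. Some genes that the rule names or the lists hold are not reported here.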

Additional observations from a re-analysis of the deposited data

Results flagged for a closer look

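In the groups of 6 mice, a single mouse lay far from the others of its group in 2 of 44 combinations of gene or receptor pair and group, where chance gives about 1 in 20. Filtered-air mouse 4 had a Ceacam1 value of 0.43, the highest of its group. Filtered-air mouse 6 had a value of 0.32 for Fcgr1 minus Fcgr2b, the highest of its group.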

How the results depend on the processing

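The count of called genes, 834, was 171 after quantile normalization, 90 in batch 1 alone and 0 in batch 2 alone, and 538 (without filtered-air mouse 1) to 751 without single mice. The members' count, 0, was 1 with no flow-sort batch term and 0 to 1 without single mice, the member being Fcgr1 each time. The count of 8 genes in the 7 lists was 1 after quantile normalization, 1 in batch 1 and 0 in batch 2, and 3 (without filtered-air mouse 1) to 8 without single mice. It was 5 without ozone mouse 3 or 4 and 4 without ozone mouse 5. The batches alone hold fewer mice, and the cause was otherwise not tested.

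Of 207 values for the members under alternatives, 184 kept direction and side of the threshold, 2 passed it and 21 changed sign, none of them called. Fcgr4 was 0.034 in batch 2, and -0.077 to 0.015 without single mice. Fcgr2b was -0.0062 after quantile normalization and -0.061 in batch 1, and -0.059 to 0.039 without single mice. Inpp5d was 0.0066 after quantile normalization, 0.0015 after median centring and 0.097 in batch 1, and -0.040 to 0.031 without single mice. In batch 2 Syk was -0.0091 and Ptpn6 -0.0033. Leaving out single mice, Syk ranged from 0.010 (ozone mouse 4) to 0.061 (ozone mouse 1), Ptpn6 from 0.021 (filtered-air mouse 1) to 0.071 (ozone mouse 3), Fcgr3 from 0.080 to 0.16, Fcer1g from 0.052 to 0.11, Fcgrt from -0.089 to -0.035 and Fcgr1 from 0.14 to 0.19. Without single mice Fcgr1 minus Fcgr2b ranged from 0.10 to 0.23, Fcgr3 minus Fcgr2b from 0.087 to 0.14 and Fcgr4 minus Fcgr2b from -0.12 to 0.041. The last changed sign when filtered-air mouse 5 was left out (0.041), and likewise for ozone mouse 3 (0.014) and ozone mouse 4 (0.027).

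The correlation of same-numbered mice ranged from -0.0026 to 0.28, over 0.1 in 4 of 6 pairs. With the replicate block 853 genes, 0 members and 9 list genes were called, and among the named genes only Il10ra lost its call.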

Other observations

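Markers of other cells were compared between the groups, and their values do not say how many such cells the sorts held. Of 74 kept markers in 13 lists, 1 was called (limma, adjusted p under 0.05), lower after ozone, against 4.25% of all genes. The mean of the kept markers moved most for B cells, at -0.26, erythroid cells, at 0.18, alveolar epithelium, at -0.14, endothelium, at -0.11, interstitial macrophages, at 0.11, and classical monocytes, at -0.11. It was -0.099 for NK cells, -0.069 for dendritic cells, 0.045 for fibroblasts and -0.044 for mast cells and basophils. Of the 4 erythroid markers 2 were above the minimum in all 12 mice, and the mast cell and basophil mean rests on 2 kept markers. Neutrophils, which carry Fcgr3 and Fcgr4, were at -0.0098, T cells at -0.0049 and nonclassical monocytes, which are rich in Fcgr4, at 0.0026. Of the 16 alveolar macrophage markers 5 were called, 2 higher and 3 lower, and their mean differed by -0.010.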
